A study of Drosophila melanogaster with 42 samples.

Results

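The wild-type ring gland was compared between 24 h and 8 h into the third larval instar of Drosophila melanogaster, the step across the middle of that instar. The comparison holds 6 of the 42 arrays of the series, 3 of ring glands at 24 h and 3 of ring glands at 8 h, chosen by the times in their labels. The flies were w1118, the white-eyed laboratory strain used as wild type, and the larvae were raised on yeast paste in the dark. The labels call the 3 samples of a group biological replicates and do not say how many glands were pooled in each. Arrays of whole w1118 larvae at 24 h and 8 h, and of ring glands and whole larvae at 4 h and 36 h, were used beside them. From the second part of the study come ring glands taken 18 h before puparium formation from torso-RNAi larvae (phantom-Gal4 crossed to a torso-RNAi transgene), from RasV12 larvae (phantom-Gal4 crossed to a constitutively active Ras) and from the control cross of phantom-Gal4 to w1118, and control glands at 8 h before puparium formation. The titles of the control arrays at 8 h before puparium formation give 18 h, and the source description was followed. All of these crosses carry the driver, so the control glands do too.

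The ring gland is the compound endocrine organ of the fly larva. Its prothoracic gland cells make the steroid ecdysone from dietary sterol with the enzymes of the Halloween genes, phantom among them. Its corpus allatum makes juvenile hormone and its corpora cardiaca make adipokinetic hormone. The brain peptide PTTH acts on the receptor Torso in the prothoracic gland, and Torso signals through Ras, Raf and ERK. Small ecdysone pulses in the middle of the last instar precede the large pulse that starts metamorphosis.

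Total RNA was labelled with Cy3 and hybridised to NimbleGen arrays. Values are RMA intensities, a linear brightness summarised over the probes of a transcript. The table holds 16637 transcripts under FlyBase transcript identifiers. It gives no gene names, and 44 identifiers were found among the synonyms of a RefSeq gene table, 16 under a single gene and 28 under several genes that share a transcript. The other 16593 are unnamed here. Of these, a pair of identifiers is printed for each direction of a comparison. Over the 6 arrays the median intensity lay between 276.1 and 289, the lower quartile between 43.0 and 43.8 and the lowest value between 8.74 and 9.51. Log2 intensities correlated across transcripts, which are not independent, with r between 0.984 and 0.991 within a time and between 0.969 and 0.979 across the times. The number of arrays limits the precision.

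Between 8 h and 24 h, 845 transcripts rose in the ring gland and 929 fell. A transcript was called at a limma adjusted p under 0.05. Together the calls make up 10.7% of the transcripts tested, 5.08% higher and 5.58% lower. Most changes were moderate. The rises had a median log2 change of 0.76 (quartiles 0.51 and 1.22) and the falls a median of -0.78 (quartiles -1.31 and -0.50), against 0.01 over all transcripts. Of the rises 66.6%, and of the falls 63.2%, were smaller than 2-fold.

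At 2-fold or more, 282 transcripts rose and 342 fell, which is 1.7% and 2.06% of those tested and 3.75% together. At 4-fold the numbers were 97 and 124, and at 8-fold 46 and 45. The largest changes were mostly rises, with 22 rises and 12 falls of at least 16-fold and 11 rises and 1 fall of at least 32-fold. The 24 h and 8 h arrays did not overlap for 829 of the 845 rises and 897 of the 929 falls. Such separation alone was found for 5055 transcripts, 30.4% of all, 15.6% with the 24 h arrays higher and 14.8% with them lower.

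**Figure D1:**
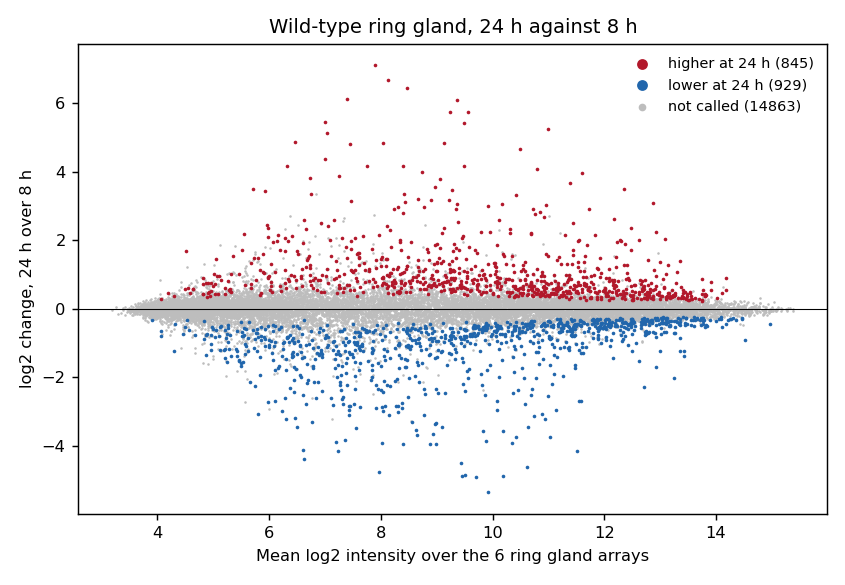
Each point is a transcript, with its mean log2 intensity over the 6 ring gland arrays on the horizontal axis and its log2 change, 24 h over 8 h, on the vertical axis. The 845 transcripts called higher (red) reach larger changes than the 929 called lower (blue), and few dim transcripts were called.

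The called share differed with brightness. Transcripts were put in 4 bins of equal size by mean intensity. In the dimmest bin, from 9.16 to 44.3, 2.04% were called, 40 higher and 45 lower. In the next bins the share was 10.1%, 15.5% and 15%. The median SE of a log2 change was 0.19, 0.23, 0.18 and 0.11 over the bins, from dim to bright. Changes of 2-fold or more were most numerous in the middle bins, with 93 rises and 161 falls in the second and 128 rises and 126 falls in the third. For 41 of the 282 large rises the mean at 8 h lay under 43.8, the upper end of the array lower quartiles, and so did the mean at 24 h for 52 of the 342 large falls. The files give no background measurement, so a fold against such a level rests on values near the bottom of the array.

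The largest rises started from very low levels at 8 h. FBtr0077578 had intensities of 3649, 985 and 6215 at 24 h, against 22.4, 17.9 and 21.0 at 8 h. All 24 h arrays lay above all 8 h arrays, with a wide spread at 24 h where replicate 2 was lowest. Its log2 change was 7.11 ± 0.70 (SE, limma adjusted p = 1.4e-06), a 138-fold rise. The log2 change was 7.87 without replicate 2 at 24 h and 6.54 without replicate 3, and 6.28 with 16 added to every intensity. FBtr0112419 had 3330, 2685 and 2557 at 24 h, against 29.5, 24.8 and 28.6 at 8 h. Its replicates lay close together and its log2 change was 6.68 ± 0.35 (SE, adjusted p = 2.4e-10), a 103-fold rise, or a log2 change of 6.03 with 16 added.

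Both of these transcripts were brighter in whole larvae than in the gland. In whole larvae FBtr0077578 averaged 13302 ± 813 at 24 h and 383 ± 302 at 8 h (SD, n = 3 each), a log2 change of 5.52 ± 0.70 (SE). FBtr0112419 averaged 20451 ± 1635 at 24 h and 7064 ± 3650 at 8 h (SD, n = 3 each) in whole larvae, a log2 change of 1.71 ± 0.35. The change of FBtr0112419 was larger in the gland by 4.97 ± 0.49 on the log2 scale (adjusted p = 4.3e-06), and that of FBtr0077578 was not shown to differ between the tissues (1.59 ± 1.00, adjusted p = 0.35). In the gland FBtr0112419 averaged 24.2 at 4 h, 27.7 at 8 h, 2857 at 24 h and 804 at 36 h. FBtr0077578 averaged 25.7, 20.5, 3616 and 5172 at these times.

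The largest falls were of transcripts that were bright at 8 h. FBtr0073147 had 132.8, 202.7 and 127.1 at 24 h, against 7807, 5731 and 5300 at 8 h. The arrays of the times lay far apart, and the log2 change was -5.36 ± 0.28 (SE, adjusted p = 2.4e-10), a 41.1-fold fall. FBtr0078456 had 111.0, 271.8 and 114.9 at 24 h, against 5045, 4005 and 4722 at 8 h. Its log2 change was -4.92 ± 0.23 (adjusted p = 7e-11), a 30.2-fold fall. In whole larvae both fell as well, with log2 changes of -3.05 and -3.30. The fall was larger in the gland for both, by differences of -2.31 ± 0.40 (adjusted p = 0.0011) and -1.62 ± 0.33 (adjusted p = 0.0035).

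**Figure D2:**
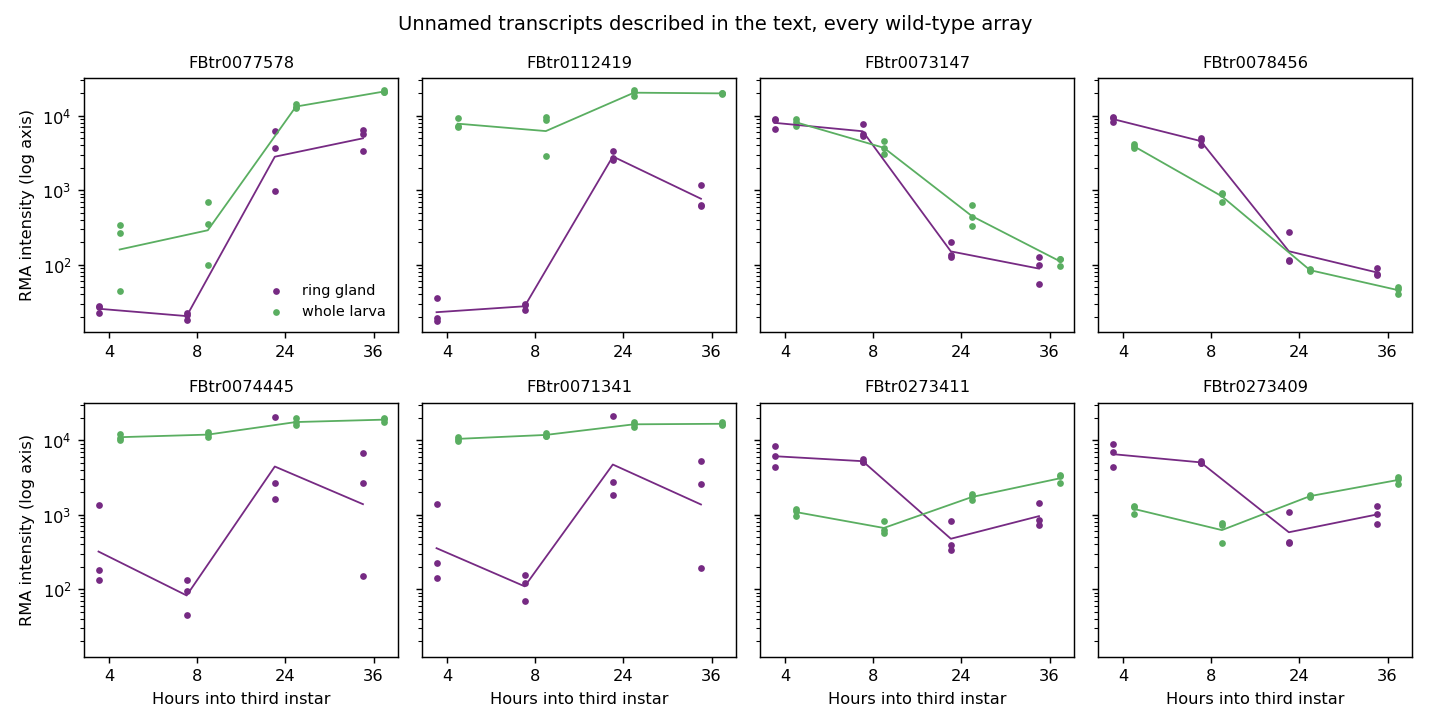
Each panel shows a transcript without a gene name, with RMA intensity on a log axis against hours into the third instar; points are single arrays of ring gland (purple) and whole larva (green), and lines join geometric means. The upper panels hold the 2 largest rises and 2 largest falls in the gland at 24 h against 8 h, and the lower panels hold the 2 largest differences from whole larva in each direction among transcripts called in the gland and not called the same way in larva, as with FBtr0074445 at 2639, 20635 and 1626 in 24 h glands.

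Among the 44 transcripts with a gene name, 3 rose, 4 fell and 37 were not called. The called share was 15.9%, against 10.7% of all transcripts and without matching for brightness, and the median log2 change was -0.02. The groups did not overlap for 19 of the 44, against 30.4% of all transcripts. Where several genes share a transcript, its level stands for the shared RNA and not for either product. Their changes were small but for a single transcript.

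The transcript shared by CG10570 and CG42502 (FBtr0081122) rose 3.93-fold. It had 6116, 4876 and 6676 at 24 h, against 1956, 1052 and 1596 at 8 h. All 24 h arrays lay above all 8 h arrays, with a log2 change of 1.97 ± 0.20 (SE, adjusted p = 2.1e-06). It was brighter in whole larvae, where it averaged 18503 ± 968 at 24 h and 10126 ± 1233 at 8 h (SD, n = 3 each). The larval log2 change was 0.88 ± 0.20, and the difference between the tissues was 1.10 ± 0.29 (adjusted p = 0.019). That difference was no longer called without replicate 2 of the gland at 8 h (0.85, adjusted p = 0.051), replicate 3 of the gland at 24 h (1.00, adjusted p = 0.051) or replicate 3 of whole larva at 8 h (1.00, adjusted p = 0.051). In the other gland groups this transcript averaged 3437 at 4 h and 3763 at 36 h, so its lowest mean among the 4 gland times was at 8 h.

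The transcript shared by CG42306 and Gint3 (FBtr0086654) had 7248, 6028 and 6338 at 24 h, against 5109, 4516 and 5027 at 8 h. It rose by a log2 change of 0.42 ± 0.08 (adjusted p = 0.0013), with no overlap between the times. The transcript shared by CG31917 and Tfb5 (FBtr0079037) rose as well. Tfb5 encodes a small subunit of the general transcription and repair factor TFIIH. Its intensities were 7885, 7920 and 7365 at 24 h, against 6539, 5880 and 6461 at 8 h. The rise on the log2 scale was 0.30 ± 0.09 (adjusted p = 0.046).

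NaPi-III (FBtr0076213), which encodes a sodium-dependent phosphate transporter, fell. It had 880.4, 956.1 and 796.5 at 24 h, against 1213, 1625 and 1541 at 8 h. The times did not overlap, and the log2 change was -0.73 ± 0.20 (adjusted p = 0.023). The nucleolar protein transcript sle (FBtr0082231) fell by 0.45 on the log2 scale (SE 0.12, adjusted p = 0.018). It had 1463, 1308 and 1284 at 24 h, against 1887, 1795 and 1841 at 8 h. In the other gland arrays sle averaged 1921 at 4 h and 1171 at 36 h, so its level at 8 h lay near that at 4 h.

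A pair of shared transcripts fell slightly. The transcript of CG42455 and vnc (FBtr0076348), where vnc encodes the catalytic subunit of an N-terminal acetyltransferase, had 11529, 11817 and 11379 at 24 h, against 12863, 13441 and 14452 at 8 h. Its log2 change was -0.23 ± 0.07 (adjusted p = 0.041). The transcript of CG7950 and Rpp14a (FBtr0085563), where Rpp14a belongs to ribonuclease P, had 7558, 8282 and 8395 at 24 h, against 9299, 9888 and 10204 at 8 h. Its log2 change was -0.28 ± 0.09 (adjusted p = 0.042). The calls of the CG31917/Tfb5 and CG7950/Rpp14a transcripts were lost when any of the 6 gland arrays was left out, and that of the CG42455/vnc transcript when any but replicate 1 at 8 h was left out. The NaPi-III call was lost without replicate 2 or 3 at 8 h or replicate 1 or 3 at 24 h, and the sle call without replicate 1 at 8 h or replicate 2 or 3 at 24 h. Their log2 changes kept their sign throughout.

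**Figure D3:**
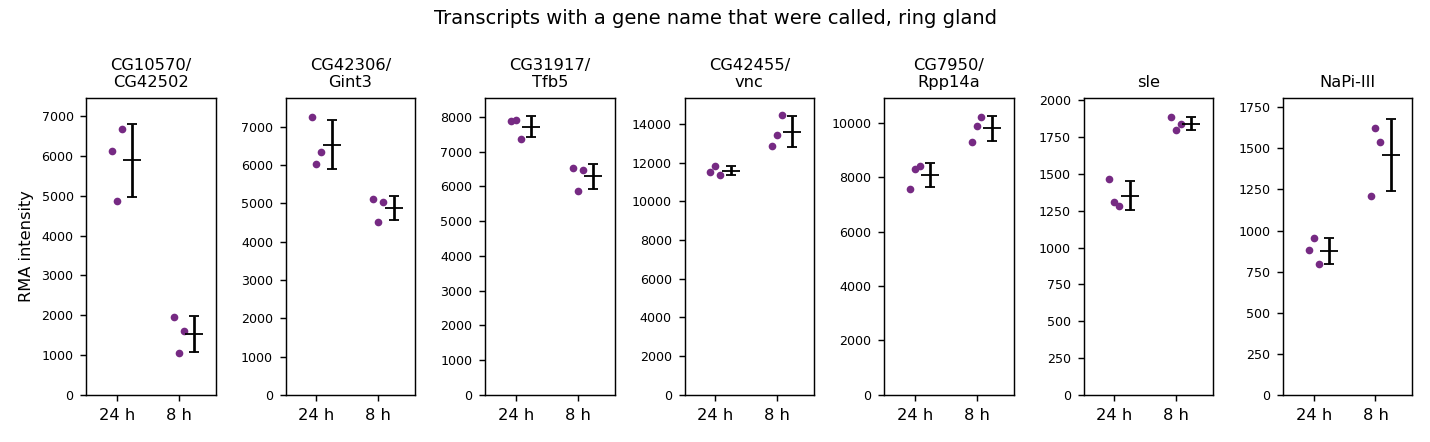
Each panel shows the RMA intensity of a called transcript with a gene name on the 3 ring gland arrays at 24 h and the 3 at 8 h, with the mean and SD as bars, on an axis that starts at 0. The CG10570/CG42502 transcript rose 3.93-fold, and the others changed by less than 2-fold.

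Members of the pathway lists that could be read were few. Of the list for insulin and TOR signalling, the GATOR2 subunits mio and Wdr24 were measured. Their log2 changes were 0.04 ± 0.15 and 0.13 ± 0.18 (mio and Wdr24 in turn), and neither was called. Of the list for sterol and lipid transport, the fatty acid transport protein transcript Fatp1 averaged 4394 ± 141 at 24 h and 4522 ± 589 at 8 h (SD, n = 3 each). Its log2 change was -0.03 ± 0.17 (adjusted p = 0.96). Of the replication list, SuUR, a chromatin protein that slows replication in polytene chromosomes, had a log2 change of -0.27 ± 0.17 (adjusted p = 0.37). In whole larvae over the same interval mio rose by 0.67 on the log2 scale (adjusted p = 0.0027) and SuUR had a log2 change of -0.83 (adjusted p = 0.0014), and for neither was the difference between gland and larva called.

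The list for chromatin also held sle, the nucleolar protein transcript, which fell, and its other members were not called. The trithorax group protein kis had a log2 change of 0.27 ± 0.21, the deacetylase HDAC3 of -0.01 ± 0.09 and the replacement histone His4r of 0.09 ± 0.09. The lists for ecdysone synthesis, Torso signalling, juvenile hormone synthesis, ecdysone response and the other cell types had no transcript with a name, so the labelled tissue was not checked against its defining markers. The transcript shared by CG33672 and Mvk, where Mvk is mevalonate kinase of the isoprenoid pathway that feeds juvenile hormone, averaged 2324 ± 245 at 24 h and 2651 ± 505 at 8 h (SD, n = 3 each). Its log2 change was -0.18 ± 0.15 (adjusted p = 0.56).

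The remaining transcripts with a name lay between log2 changes of -0.68 and 0.51, at adjusted p values from 0.073 to 0.99. The lower end was the transcript of Rad1, a subunit of the DNA damage clamp, and Sws1, with 631.9 ± 124.6 at 24 h and 1001 ± 79 at 8 h (SD, n = 3 each). The upper end was the transcript of lmgA and lmgB, where lmgA is a subunit of the anaphase-promoting complex. Its SE of 0.36 was among the largest of the 44, with 495.5 ± 51.8 at 24 h and 394.4 ± 204.8 at 8 h (SD, n = 3 each). The transcript of CG42516 and Pbp49, a subunit of the complex that starts transcription of small nuclear RNA genes, had a log2 change of -0.30 ± 0.10 (adjusted p = 0.073) with no overlap between the times.

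**Figure D4:**
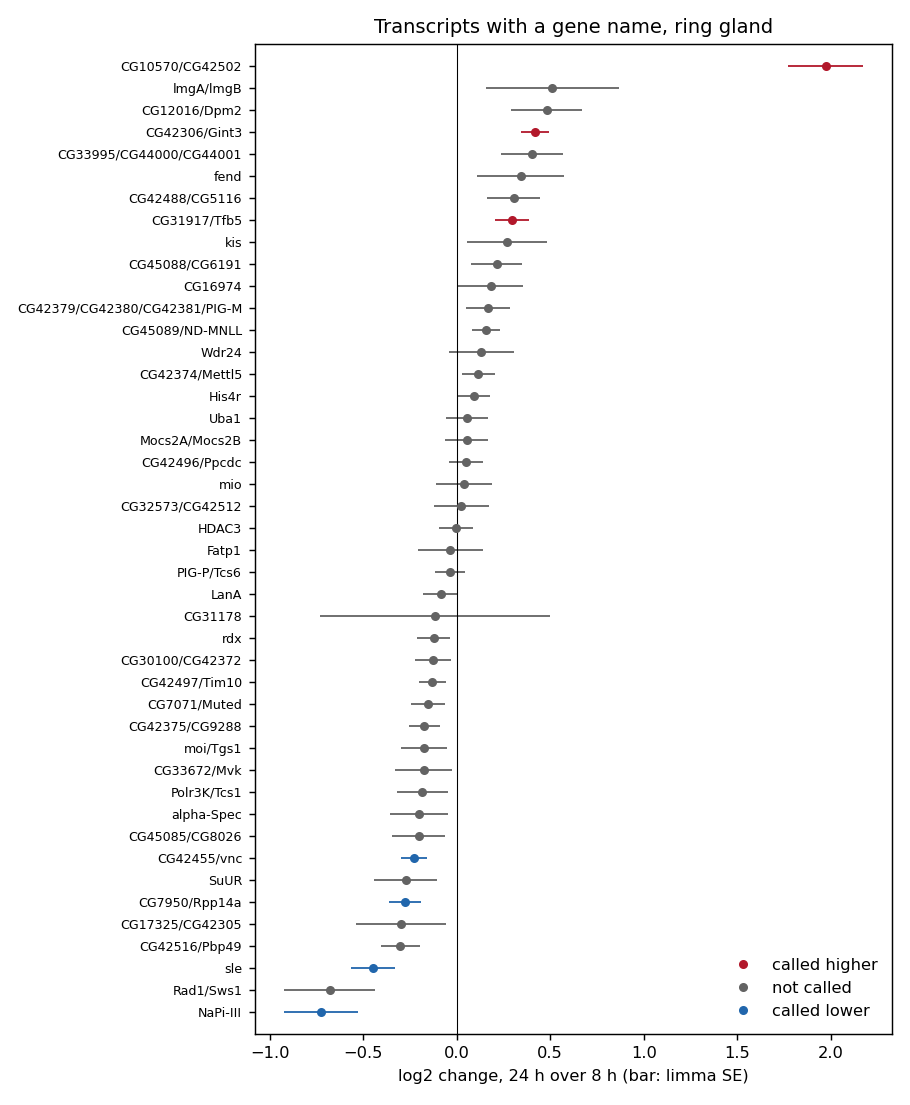
Log2 change, 24 h over 8 h, of the 44 transcripts with a gene name (vertical axis, gene symbols as the RefSeq table gives them), with limma SE as bars. The 3 called higher are red, the 4 called lower blue, and the CG10570/CG42502 transcript at 1.97 stands apart.

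Transcripts were also sorted by tissue, with fold differences from the 4 h and 36 h arrays alone. The adjusted p of this sorting took its spread from all 24 wild-type arrays, the 6 compared gland arrays among them. There were 305 gland-high transcripts, at least 4-fold higher in gland than in whole larva at both times (adjusted p under 0.05), and 1050 larva-high transcripts, at least 4-fold lower. Of the gland-high transcripts 32 rose and 25 fell between 8 h and 24 h, which is 10.5% and 8.2%, against 5.08% and 5.58% of all transcripts. These shares were not matched for brightness, with which the called share differed. Over the gland-high transcripts rises and falls nearly balanced. Their median log2 change was 0.04. The rises were between 1.36-fold and 6.78-fold and the falls between 1.44-fold and 7.13-fold. None of the changes over 16-fold was among them. Gland-high transcripts made up 1.83% of all, so few would be there at that share. The 32 that rose had mean intensities from 194.1 to 16208 at 24 h and from 123.2 to 11943 at 8 h. The 25 that fell had means from 66.9 to 4847 at 24 h and from 134.5 to 19775 at 8 h.

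Of the larva-high transcripts 82 rose and 64 fell, 7.81% and 6.1%. They made up 6.31% of all transcripts, 22.7% of the rises of 2-fold or more and 15.2% of such falls. Of the 22 rises over 16-fold 11 were larva-high, and of the 12 falls 1. Among the 50 largest rises, from 7.53-fold to 138-fold, 24 were larva-high and 0 gland-high, and the mean was higher in whole larva than in gland in 40 at 24 h and in 48 at 8 h. Among the 50 largest falls 4 were larva-high and 0 gland-high, and the mean was higher in whole larva than in gland in 44 at 24 h and in 27 at 8 h. A large rise favours a low gland mean at 8 h, and a large fall a low gland mean at 24 h, on these same arrays. The counts of 48 and 44 are thus partly set by the ranking. With gland-high transcripts at 1.83% of all, few would be among 50, so the counts of 0 are not read as a result. The share of all transcripts with a higher mean in larva was not counted. The share of total intensity held by the larva-high transcripts was 1.48%, 2.27% and 1.6% on the 24 h gland arrays and 1.37%, 1.78% and 0.853% on the 8 h gland arrays, against 13.5% to 15.8% on arrays of whole larvae. The gland times overlapped in this share (exact permutation test, 2-sided p = 0.4, n = 3 each, smallest possible p 0.1). Replicate 2 at 24 h was highest and replicate 3 at 8 h lowest. Without both, 551 rises and 537 falls were called, of which 513 and 472 belonged to the 845 and 929. The part of RNA from other larval tissue in these rises was not tested. Fewer cells of a type and less RNA per cell cannot be told apart in glands measured whole.

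The same interval in whole larvae gave 1686 higher and 1758 lower calls, 10.1% and 10.6% of all transcripts and 20.7% together. Of the 845 gland rises 264 also rose in whole larva, 45 fell there and 536 were not called. This is 31.2% of the gland rises and 15.7% of the larval rises. Of the 929 gland falls 402 also fell in whole larva and 63 rose, which is 43.3% of the gland falls and 22.9% of the larval falls. The median larval log2 change was 0.21 for the gland rises and -0.39 for the gland falls, against 0 over all transcripts. Of the 32 gland-high rises 8 rose in whole larva and 1 fell (25% and 3.12%), and of the 25 gland-high falls 5 fell and 0 rose (20% and 0%). Over all 305 gland-high transcripts 13.1% rose in whole larva and 6.23% fell.

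The test of the difference between the tissues called 1604 transcripts, 9.64% of all. The change was more positive in the gland for 844 (5.07%) and more negative for 760 (4.57%). The 2 with the largest positive difference, among transcripts that rose in the gland and did not rise in whole larva, were FBtr0074445 and FBtr0071341. These were chosen after their values were seen. FBtr0074445 had 2639, 20635 and 1626 in 24 h glands, against 44.6, 134.1 and 94.1 in 8 h glands. In whole larvae it averaged 17704 ± 1949 at 24 h and 11978 ± 954 at 8 h (SD, n = 3 each).

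FBtr0071341 had nearly the same pattern, with 2779, 21009 and 1824 in 24 h glands, against 70.0, 156.5 and 119.9 in 8 h glands. Both stood highest in replicate 2 at 24 h, the gland array with the highest larva-high share, and both are larva-high. Their own intensities are part of that share. Their log2 changes in the gland were 5.75 ± 1.08 and 5.44 ± 0.99 (adjusted p = 0.0015 and 0.0011), or 4.65 and 4.36 without replicate 2 at 24 h and 6.48 and 6.13 without replicate 3. The differences from whole larva, 5.19 ± 1.53 and 4.96 ± 1.39 (adjusted p = 0.038 and 0.031), were not called without that replicate 2 (4.09 and 3.89, adjusted p = 0.10 and 0.085). Without replicate 3 at 24 h the differences were 5.92 and 5.65 and were called. Leaving out replicate 1 or 3 of the gland at 8 h, or any of the 6 whole larva arrays, ended the call for FBtr0074445, and the same held for FBtr0071341 apart from larva replicate 1 at 24 h.

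In the opposite direction FBtr0273411 and FBtr0273409 fell in the gland and rose in whole larva, and they too were chosen after their values were seen. FBtr0273411 had 334.8, 397.8 and 815.6 in 24 h glands, against 5589, 5050 and 5141 in 8 h glands. The log2 change was -3.46 ± 0.29 (adjusted p = 1.7e-07). In whole larvae it had 1791, 1560 and 1875 at 24 h, against 620.7, 823.0 and 578.5 at 8 h, with a larval log2 change of 1.38 ± 0.29 (adjusted p = 0.0018). The gland was the brighter tissue at 8 h and the dimmer at 24 h. The difference was -4.84 ± 0.41 (adjusted p = 7.8e-07), and FBtr0273409 had a difference of -4.64 ± 0.45 (adjusted p = 3.1e-06). FBtr0273409 followed nearly the same course, with gland means of 648.1 ± 383.9 at 24 h and 5068 ± 221 at 8 h (SD, n = 3 each). Whether these neighbouring identifiers belong to the same gene was not checked. Among transcripts with a name, the difference was called for 4 of 44, against 9.64% of all transcripts, and all 4 are shared by several genes. The PIG-M transcript (FBtr0071680, with CG42379, CG42380 and CG42381), where PIG-M is a mannosyltransferase of GPI anchor synthesis, was not called in the gland (0.16 ± 0.12) and fell in whole larva by 0.52 on the log2 scale.

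The other gland times, 36 h and 4 h, show where these transcripts stood outside the interval. The 845 rises had a median of their mean intensities of 808.5 at 4 h, 708.6 at 8 h, 1676 at 24 h and 1750 at 36 h. The 929 falls had 1520, 1305, 575.2 and 484.6. The contrast of 36 h against 4 h took its log2 changes from the arrays of those times alone. Its spread came from all 24 wild-type arrays, the 24 h and 8 h gland arrays among them. Its calls are thus not independent of those at 24 h against 8 h. In it 622 of the 845 rises were higher at 36 h than at 4 h and 33 lower, 73.6% and 3.91%. Of all transcripts 24.5% were higher and 13.4% lower (38% together). Of the 929 falls 628 were lower and 52 higher, 67.6% and 5.6%. All transcripts had a median log2 change of 0.15 from 4 h to 36 h. With arrays centred, 535 rises were higher and 46 lower and 700 falls were lower and 18 higher, against 14.9% higher and 18.7% lower of all transcripts. Of the falls of at least 2-fold, 293 of 342 were lower at 36 h than at 4 h and 3 higher. Of the rises of at least 2-fold, 203 of 282 were higher and 21 lower.

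The transcripts were then read in glands with altered Torso and Ras signalling, on arrays that were taken as normalized separately, so only directions within that part are compared. In torso-RNAi glands at 18 h before puparium formation 34.2% of the 845 rises were called lower than in control glands and 19.8% higher, against 22.6% lower and 18.5% higher of all transcripts (41% together). Of the 929 falls 15.3% were lower and 34.8% higher. The median log2 changes were -0.14 for the rises and 0.25 for the falls, against -0.02 over all transcripts. Without larva-high members 37.1% of the rises were lower and 17.8% higher, and 16.3% of the falls were lower and 33.4% higher. For the rises and falls called without gland replicate 2 at 24 h and replicate 3 at 8 h, 36.5% of 551 rises were lower and 20% higher, and 12.5% of 537 falls were lower and 40% higher.

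Gland-high members were counted apart, as transcripts and not as genes. Some of the 32 rises had neighbouring identifiers and close log2 changes from 8 h to 24 h, such as 1.98 and 1.95. Neighbouring identifiers also occurred among the 25 falls. Whether such transcripts belong to the same gene was not checked. A gene may thus count more than once in every count of gland-high members. Of the 32 gland-high rises, 24 were lower in torso-RNAi glands and 1 higher, 75% and 3.12%, with a median log2 change of -0.99. Of all 305 gland-high transcripts 41.3% were lower and 16.7% higher, with a median of -0.28. Of the 25 gland-high falls 4 were lower in torso-RNAi glands and 7 higher, with a median of 0.02.

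In RasV12 glands at the same time the rises were called in both directions, 28% lower and 26.3% higher, against 21.7% lower and 22.8% higher of all transcripts (44.5% together). Of the falls 27.9% were lower and 19.5% higher. The medians were 0.01 and -0.01, against 0.06 over all transcripts. Of the 25 gland-high falls 14 were lower and 3 higher (56% and 12%, median -0.95), against 33.1% lower and 23.6% higher of all 305. Of the 32 gland-high rises 9 were lower and 7 higher. The torso-RNAi and RasV12 comparisons share the control arrays at 18 h before puparium formation.

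In the control cross, glands at 8 h were compared with glands at 18 h before puparium formation. These 18 h arrays also served as controls for torso-RNAi and RasV12 glands. The calls here are thus not independent of those comparisons. Of the 845 rises 21.5% were higher and 8.05% lower, against 7.6% and 6.25% of all transcripts (13.8% together). Of the 929 falls 16.1% were lower and 3.44% higher. Of the 25 gland-high falls 7 were lower and 0 higher, and of the 32 gland-high rises 5 were higher and 0 lower. Of all 305 gland-high transcripts 12.8% were lower and 5.25% higher. NaPi-III and sle, which fell in the wild-type gland from 8 h to 24 h, were also called lower here, with log2 changes of -0.76 ± 0.19 (adjusted p = 0.019) and -0.40 ± 0.11 (adjusted p = 0.028). FBtr0112419, which rose 103-fold in the wild-type gland, was lower here by a log2 change of -2.31 ± 0.50 (adjusted p = 0.0087).

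**Figure D5:**
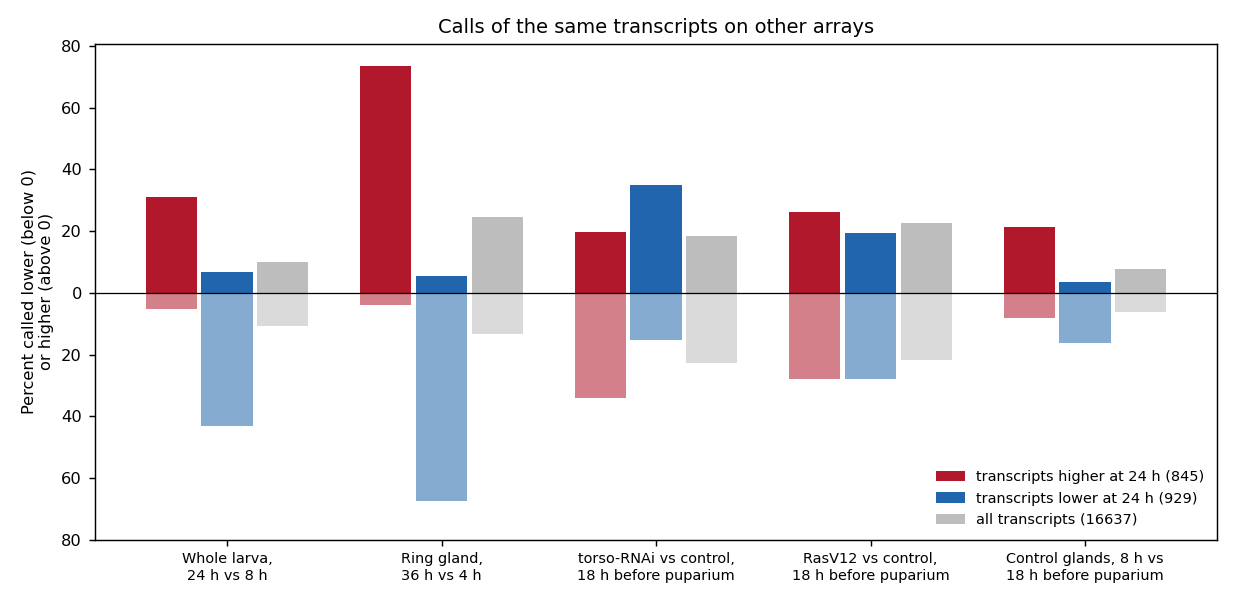
Percent of transcripts called higher (bars above 0) or lower (paler bars below 0) in 5 comparisons between other groups. Bars are for the 845 transcripts that rose in the ring gland at 24 h (red), the 929 that fell (blue) and all 16637 (grey). At 36 h against 4 h 73.6% of the rises were higher, and in torso-RNAi glands 34.2% of the rises were lower and 34.8% of the falls higher. The torso-RNAi, RasV12 and control-cross comparisons share the control arrays at 18 h before puparium formation.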

How the data were processed

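The deposited values are RMA intensities on a linear scale, per the submitters' processing notes. The sources used here do not give the background correction beyond RMA, the probe annotation, the slides or the genome build. The wild-type part and the driver crosses differ in their lowest values and decimals, so they were fitted apart. Every intensity was taken to log2 without a pseudocount. The 24 wild-type arrays in 8 groups, and the 18 driver-cross arrays in 6 groups, were each given a model of a mean per group. Tests were moderated by empirical Bayes (limma 3.58.1, R 4.3.3), with Benjamini-Hochberg adjustment over 16637 transcripts. Errors of log2 changes are limma SEs. Names were matched to the synonyms of the RefSeq table of assembly Release 6 plus ISO1 MT, and identifiers without a match keep their number. Named transcripts are all 44 with a match, and, of the others, the 2 largest rises and 2 largest falls that were called without overlap. A further 4, with the largest differences from whole larva among calls that larva did not share in direction, were chosen after their values were seen. The members, lists, tissue classes and comparisons were chosen with earlier results of these data known. The labels call replicates biological and say no more of their origin, so p-values measure the spread between these samples. That spread was taken within groups and pooled over all groups of the fitted part, not over the compared arrays alone. Of all pairs of columns 0 were identical. The 24 h against 8 h results in gland and larva, and their difference, were also computed with a second quantile normalization, arrays centred on their median deviation, dim transcripts left out, trend and robust moderation, array weights, the compared groups alone, 16 added before log2, a replicate block, a 2-fold minimum and each array left out, and the other comparisons with the normalizations, the compared groups alone (added after seeing the data), the block and each array left out.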

Additional observations from a re-analysis of the deposited data

Results flagged for a closer look

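The changes listed here differed between ring gland and whole larva by the interaction test, and each difference is the gland's log2 change from 8 to 24 h minus the larva's. The differences were 5.19 for FBtr0074445, 4.96 for FBtr0071341 and 4.97 for FBtr0112419, all more positive in the gland. Of 21 alternatives, left-out arrays among them, the difference stayed called under 12 for FBtr0074445, 13 for FBtr0071341 and 21 for FBtr0112419. They were -4.84 for FBtr0273411, -4.64 for FBtr0273409, -2.31 for FBtr0073147 and -1.62 for FBtr0078456, all more negative in the gland and called under all 21 alternatives. Among the transcripts shared by named genes the differences were 1.1 for CG10570/CG42502, 0.83 for CG42488/CG5116, 0.69 for CG42379/CG42380/CG42381/PIG-M and 0.51 for CG7950/Rpp14a. That of CG10570/CG42502 stayed called under 18 of 21 alternatives, and each of the others under 20. The others were lost only at the 2-fold minimum, which differences of their size cannot pass. The CG42488/CG5116 transcript averaged 2750 ± 27 in gland at 24 h and 2228 ± 122 at 8 h, and 950.2 ± 20.3 in whole larva at 24 h and 1368 ± 74 at 8 h (SD, n = 3 each). The CG7950/Rpp14a transcript fell in both tissues, by 0.28 in gland and 0.79 in whole larva on the log2 scale.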

How the results depend on the processing

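The 1774 calls at 24 h against 8 h became 1843 with a second quantile normalization, 1948 with arrays centred and 2339 with array weights. They were 1069 when only the compared groups were fitted, 624 at a 2-fold minimum and 1088 without replicate 3 at 8 h and replicate 2 at 24 h, a choice made after seeing the data. With 1 array left out they ranged from 1291 to 1477. The replicate number as a block in that fit of the compared groups gave 446. Deviations of same-numbered 24 h and 8 h gland arrays correlated with r = 0.10, 0.21 and -0.02. For replicates 1 and 2 at 24 h the same number at 8 h was the best match. Replicate 3 at 24 h correlated best with replicate 1 at 8 h. The labels name no pairs and the match did not hold for all numbers, so the numbers were not taken as pairs. Fits of the compared groups alone gave, with the block and without it, 1662 and 2804 calls for whole larva, 3075 and 4615 for gland at 36 h against 4 h, 4417 and 6187 for RasV12 against control, 1214 and 2434 for control glands at 8 h against 18 h, 5787 and 7106 for torso-RNAi against control, and 1227 and 1473 for the difference between the tissues. The fits without the block were added after seeing the data for gland at 36 h against 4 h and for the crosses. The 1604 calls for the difference between the tissues became 2541 with array weights and 764 at a 2-fold minimum, and larva gave 955 at that minimum. Leaving out 1 array gave ranges of 1116 to 1934 for the difference, 2605 to 3940 for larva, 4996 to 5978 for gland at 36 h, 5908 to 6121 for torso-RNAi, 6190 to 6894 for RasV12 and 1227 to 1969 for the control glands. That last count stood at 1299 without control replicate 1 at 18 h, 1354 without replicate 1 at 8 h and 1227 without replicate 2 at 8 h. The cause was not tested, beyond fewer arrays or a stricter threshold. Among the transcripts printed with a call, 0 reversed their direction under the alternatives run. With arrays centred, gland at 36 h against 4 h had 2472 higher and 3116 lower calls, in place of 4077 and 2237. The array weights did not reach their convergence tolerance. The 8 transcripts without a name kept their gland call under all 16 alternatives, as did CG10570/CG42502. CG42306/Gint3 kept it under 13, sle under 10, NaPi-III under 9, CG42455/vnc under 7, and CG31917/Tfb5 and CG7950/Rpp14a under 6. A 2-fold minimum is among the 16, and changes as small as these could not pass it. The files give no signal over background, which limits what can be said of dim transcripts.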
